A study of Mus musculus with 17 samples.

Results

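The 3 libraries titled liver, DSS day 10 were compared with the 3 titled liver, DSS day 0, which makes 6 libraries of 17 in the series. They were chosen by title alone. Per the labels, all 6 came from the liver of WT mice, all carry the treatment DSS, and the groups differ in the time given, day 10 or day 0. The labels do not spell out DSS and give no dose, age, sex or number of animals, so how a day 0 sample relates to the treatment is not known. RNA was sequenced in bulk. Whether each library is a separate animal is not stated either, and the p-values below therefore speak for the spread among these 6 libraries, part or all of which may be technical.

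The marker genes went against the liver label. Both groups carried the genes of the small intestinal lining, and they are called day 10 and day 0 libraries here. As background, that lining is renewed from crypts, pits in which dividing stem cells sit between Paneth cells, which secrete antimicrobial defensins. Crypts give rise to absorptive enterocytes and to secretory cells, among them mucus-making goblet cells, hormone-making enteroendocrine cells and chemosensory tuft cells. Interferon-gamma, a cytokine made by T cells and natural killer (NK) cells, acts on these epithelial cells through transcription factors that include Irf1. Its known targets include GTPases that attack intracellular microbes and the genes of antigen presentation on MHC class I and class II.

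Expression is given as CPM, counts per 1e+06 after TMM scaling, unless stated otherwise, with values in the order of replicates 1, 2 and 3. A log2 fold change is day 10 over day 0 and is given with its SE. Genes are called risen or fallen at an adjusted p under 0.05 in edgeR's quasi-likelihood test. Total counts were 28429837, 23947162 and 12742629 in the day 10 libraries, against 36717028, 36247451 and 29874354 in the day 0 libraries. The lowest total, in day 10 replicate 3, went with the widest detection, since 1023 of 1106 olfactory receptor genes had a count there, against 654 and 711 in the other day 10 libraries and 389 to 435 in the day 0 libraries. Identifiers with no gene name took 13.4 to 22.1% of the counts in the day 10 libraries and 6.32 to 9.17% in the day 0 libraries.

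Alb, which encodes serum albumin and marks hepatocytes, had 438, 562 and 1897 CPM of all counts in the day 10 libraries, against 309, 487 and 469 in the day 0 libraries. The libraries labelled liver at day 20 had 34808 to 37893. Over 16 hepatocyte markers, the median level was 1.19, 1.4 and 4.36% of the day 20 level in the day 10 libraries, and 0.823, 1.29 and 1.15% in the day 0 libraries. Cps1, a urea cycle enzyme that the small intestine also expresses, stood apart from the other markers at 24.7 to 130% of the day 20 level. Olfm4, a marker of crypt stem cells (chr14:80000302-80023141 on GRCm38), had 5014, 2691 and 7826 CPM of all counts in the day 10 libraries, against 7996, 8228 and 8596 in the day 0 libraries and 26.9 to 40.6 at day 20. Crypt markers were thus high and hepatocyte markers low in both groups. The 14 listed markers of the colon summed to 962, 1029 and 1102 CPM in the day 10 libraries, against 612, 1009 and 906 in the day 0 libraries. The 12 listed for the proximal small intestine summed to 618, 570 and 1075 CPM in the day 10 libraries, against 338, 471 and 513 in the day 0 libraries. For the 10 listed for the ileum, the sums were 318, 262 and 880 CPM in the day 10 libraries. In the day 0 libraries they were 610, 670 and 651 CPM. Defa24, a defensin of Paneth cells, which the healthy colon of mice lacks, had 58780, 58827 and 6007 CPM of all counts in the day 10 libraries, against 24939, 21571 and 21634 in the day 0 libraries.

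Sex-linked genes also separated the groups. Xist, the RNA that silences an X chromosome in female cells (chrX:103460373-103483233), had 593, 679 and 286 CPM in the day 10 libraries, against 25.1, 34.2 and 32.1 in the day 0 libraries. Its log2 fold change was 4.09 ± 0.32 (adjusted p = 0.00037). The Y-linked Eif2s3y, a translation initiation factor gene, had 0.514, 0.831 and 2.29 CPM in the day 10 libraries, against 49.9, 45.1 and 46.5 in the day 0 libraries. Ddx3y, an RNA helicase gene of the Y chromosome, had 0.55, 1.17 and 1.6 CPM in the day 10 libraries, against 16.1, 27.8 and 30.7 in the day 0 libraries. The groups did not overlap for any of these genes. The day and the sex of the source tissue therefore cannot be told apart in any comparison below.

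**Figure D1:**
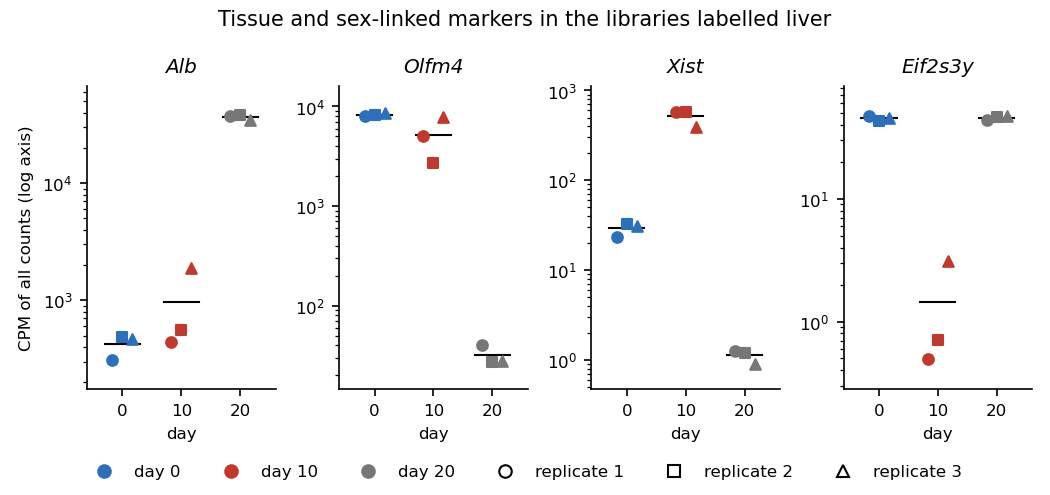
CPM of all counts (log axis) of Alb, Olfm4, Xist and Eif2s3y in the 9 libraries labelled liver, by day; points are libraries and lines are means. Alb is far higher at day 20 than on the other days, Olfm4 is far lower there, and the day 10 libraries are high in Xist and low in Eif2s3y.

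Of 15369 genes tested, 2068 rose (13.5%) and 3379 fell (22%) at day 10, so that 35.4% were called in all. With a size of at least 2-fold, 1707 rose (11.1%) and 486 fell (3.16%). The libraries of the groups did not overlap for 53.6% of all genes tested, with day 10 above day 0 for 21% and below it for 32.6%. The median log2 fold change over all genes was -0.08, and RLE scaling moved it to 0.04. Calls split into 38% risen with TMM scaling and 57% risen with RLE scaling, so that the balance of rises and falls depends on the scaling. Rises were mostly of weakly expressed genes: 61.8% of the genes that rose were under 5 CPM at day 10, and 64.7% were highest in day 10 replicate 3, against 39.5% of all genes tested. Of the genes that fell, 1.6% were under 5 CPM at day 0. Counts of calls moved with single libraries. Risen genes numbered 832, 679 and 866 without day 0 replicate 1, 2 or 3 and 1108 without day 10 replicate 2. Fallen genes numbered 1604 without day 0 replicate 1, 2189 without day 0 replicate 2 and 910 without day 10 replicate 2.

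Libraries within a group also stood apart. The first principal component (65.3% of the variance) separated the days, and the second (16.3%) set day 10 replicate 3 against day 10 replicates 1 and 2. Among genes of at least 10 CPM, 695 of 8964 were over 2-fold lower in day 0 replicate 1 than the log-scale average of the other day 0 libraries. By the same measure, 0 were over 2-fold higher. Those 695 genes were long, with a median span of 48188 bp, against 22242 bp over all 8964.

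The interferon-gamma targets fell almost as a block. Of 20 tested members of the list of interferon-gamma GTPases and targets, 19 fell, against 22% of all genes tested, and the median log2 fold change was -2.85. Leaving out any 1 library left 18 to 20 fallen. The libraries of the groups did not overlap for any of the 20. The same held for 53.6% of all genes tested, with day 10 below day 0 for 32.6%. Summed over the list, the level was 225, 193 and 283 CPM in the day 10 libraries, against 1908, 1658 and 1663 in the day 0 libraries.

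Igtp, an immunity-related GTPase that acts on the vacuoles of intracellular parasites (chr11:58199556-58207592), had 12.7, 9.68 and 16.4 CPM in the day 10 libraries, against 271, 220 and 226 in the day 0 libraries. Every day 10 library was more than 10 times lower than every day 0 library, and the log2 fold change was -4.21 ± 0.22 (adjusted p = 0.0001). Tgtp1 and Tgtp2, GTPase genes that lie close together on chromosome 11, are near-identical copies, so that reads may be split between them. Tgtp1 had 4.7, 5.72 and 19.6 CPM in the day 10 libraries, against 427, 351 and 356 in the day 0 libraries (log2 fold change -5.25 ± 0.53, adjusted p = 0.0011). Tgtp2 had 1.65, 1.03 and 5.04 CPM in the day 10 libraries, against 132, 107 and 113 in the day 0 libraries. Its log2 fold change of -5.55 was the lowest among the genes that the naming rule selected. In both genes day 10 replicate 3 was the highest of its group and still far below day 0.

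Irgm1 and Irgm2, regulators of the other immunity-related GTPases, fell by less. Irgm1 had 34.3, 26.8 and 43 CPM in the day 10 libraries, against 201, 180 and 178 in the day 0 libraries (log2 fold change -2.42 ± 0.19, adjusted p = 0.00036). Irgm2 had 9.14, 8.41 and 13.8 CPM in the day 10 libraries, against 88.3, 111 and 116 in the day 0 libraries (log2 fold change -3.33 ± 0.23, adjusted p = 0.00021). Among the guanylate-binding proteins, which coat and lyse microbial vacuoles, Gbp2 had 0.697, 0.635 and 2.57 CPM in the day 10 libraries, against 37.8, 28.7 and 29.3 in the day 0 libraries. Its log2 fold change was -4.67 ± 0.49 (adjusted p = 0.0013). Gbp5 did not pass, with 0.183, 0.293 and 1.95 CPM in the day 10 libraries, against 2.77, 3.7 and 3.12 in the day 0 libraries (adjusted p = 0.06). Without day 10 replicate 3 its log2 fold change was -3.76 (adjusted p = 0.00044), and all 20 members of the list were then called fallen.

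Regulators in the pathway fell as well. Irf1, a transcription factor that interferon-gamma induces, had 138, 117 and 135 CPM in the day 10 libraries, against 498, 418 and 401 in the day 0 libraries (log2 fold change -1.75 ± 0.14, adjusted p = 0.00039). Socs1, a feedback inhibitor of the receptor's kinases, had 5.25, 6.26 and 9.67 CPM in the day 10 libraries, against 32.6, 29.5 and 30.3 in the day 0 libraries. Ubd, an interferon-gamma-inducible ubiquitin-like modifier, had 0.697, 0.684 and 1.37 CPM in the day 10 libraries, against 37.4, 31.5 and 30.6 in the day 0 libraries. Both were called, with log2 fold changes of -2.13 for Socs1 and -5.20 for Ubd. The chemokines Cxcl9 and Cxcl10, which draw T cells, were low in both groups. Cxcl9 had 1.21, 1.71 and 1.89 CPM in the day 10 libraries, against 5.91, 6.91 and 7.16 in the day 0 libraries.

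Genes that respond to interferons of any type moved less evenly. Of 24 tested members of the interferon-stimulated list, 9 fell and 1 rose, against 22% and 13.5% of all genes tested. The other 14 did not pass, and the median log2 fold change over the 24 was -0.62. Bst2, a membrane tether for budding viruses, had 11.3, 12.3 and 17.7 CPM in the day 10 libraries, against 75.4, 63.4 and 65.9 in the day 0 libraries (log2 fold change -2.31 ± 0.21, adjusted p = 0.00055). Ifit2, an RNA-binding antiviral protein, also fell, with a log2 fold change of -2.29 ± 0.41. Isg15, a ubiquitin-like modifier, had 1.5, 2.54 and 2.57 CPM in the day 10 libraries, against 3.83, 3.73 and 3.8 in the day 0 libraries. It did not pass (adjusted p = 0.07), and it was called fallen without day 10 replicate 3 (log2 fold change -0.92, adjusted p = 0.037). Stat2, a factor specific to type I and type III interferon signalling, had 16.5, 15.1 and 21.7 CPM in the day 10 libraries, against 15.4, 36.7 and 33.6 in the day 0 libraries. Its groups overlapped through day 0 replicate 1, without which it was called fallen (log2 fold change -0.86, adjusted p = 0.034, against 0.12 with it).

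Antigen presentation on MHC class II fell in each member that could be tested. All 8 tested members of 10 listed fell, against 22% of all genes tested, with a median log2 fold change of -2.56. All 8 also fell in every fit that left out 1 library. Ciita, the factor that switches these genes on (chr16:10480014-10531064), had 19.1, 24.7 and 34.9 CPM in the day 10 libraries, against 102, 133 and 135 in the day 0 libraries (log2 fold change -2.24 ± 0.23, adjusted p = 0.0012). H2-Ab1, a class II beta chain, had 209, 211 and 363 CPM in the day 10 libraries, against 1933, 1628 and 1529 in the day 0 libraries (log2 fold change -2.70 ± 0.24, adjusted p = 0.00055). H2-Aa, the alpha chain that it joins, had 100, 97.8 and 178 CPM in the day 10 libraries, against 1107, 942 and 904 in the day 0 libraries. Every day 10 library was below every day 0 library for these 3 genes. Cd74, the invariant chain that guards the binding groove, was the most abundant member and fell to 750, 698 and 999 CPM in the day 10 libraries, against 3693, 3819 and 3651 in the day 0 libraries. H2-DMa and H2-DMb2, chains of the peptide-loading catalyst, fell too, by 2.35 and by 3.57 on the log2 scale.

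Class I presentation fell by a smaller amount. Of 16 tested members of the list of MHC class I and immunoproteasome genes, 15 fell, against 22% of all genes tested. The median log2 fold change of the 16 was -1.68. With 1 library left out at a time, 13 to 16 fell. Nlrc5, the class I counterpart of Ciita, had 2.28, 3.81 and 7.21 CPM in the day 10 libraries, against 16.7, 26.4 and 23.3 in the day 0 libraries (log2 fold change -2.33 ± 0.4, adjusted p = 0.0062). B2m, the light chain of every class I molecule (chr2:122147687-122153082), had 816, 742 and 874 CPM in the day 10 libraries, against 2802, 2339 and 2383 in the day 0 libraries (log2 fold change -1.63 ± 0.15, adjusted p = 0.00055). Tap1, a subunit of the peptide pump, had 41.4, 39.9 and 56.2 CPM in the day 10 libraries, against 390, 346 and 331 in the day 0 libraries (log2 fold change -2.96 ± 0.17, adjusted p = 0.00015). Day 10 lay below day 0 throughout. Psmb8, a catalytic subunit of the immunoproteasome that cuts the peptides, had 194, 216 and 236 CPM in the day 10 libraries, against 1150, 949 and 902 in the day 0 libraries (log2 fold change -2.22 ± 0.15, adjusted p = 0.0002). H2-T3, a non-classical class I gene of the small intestinal lining, had 62.2, 53.8 and 80.1 CPM in the day 10 libraries, against 94.3, 80.8 and 81.9 in the day 0 libraries, and did not pass (adjusted p = 0.1). Without day 10 replicate 3 it was called fallen (log2 fold change -0.57, adjusted p = 0.02), which brought the list to 16 of 16. Near-identical class I genes may share reads.

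**Figure D2:**
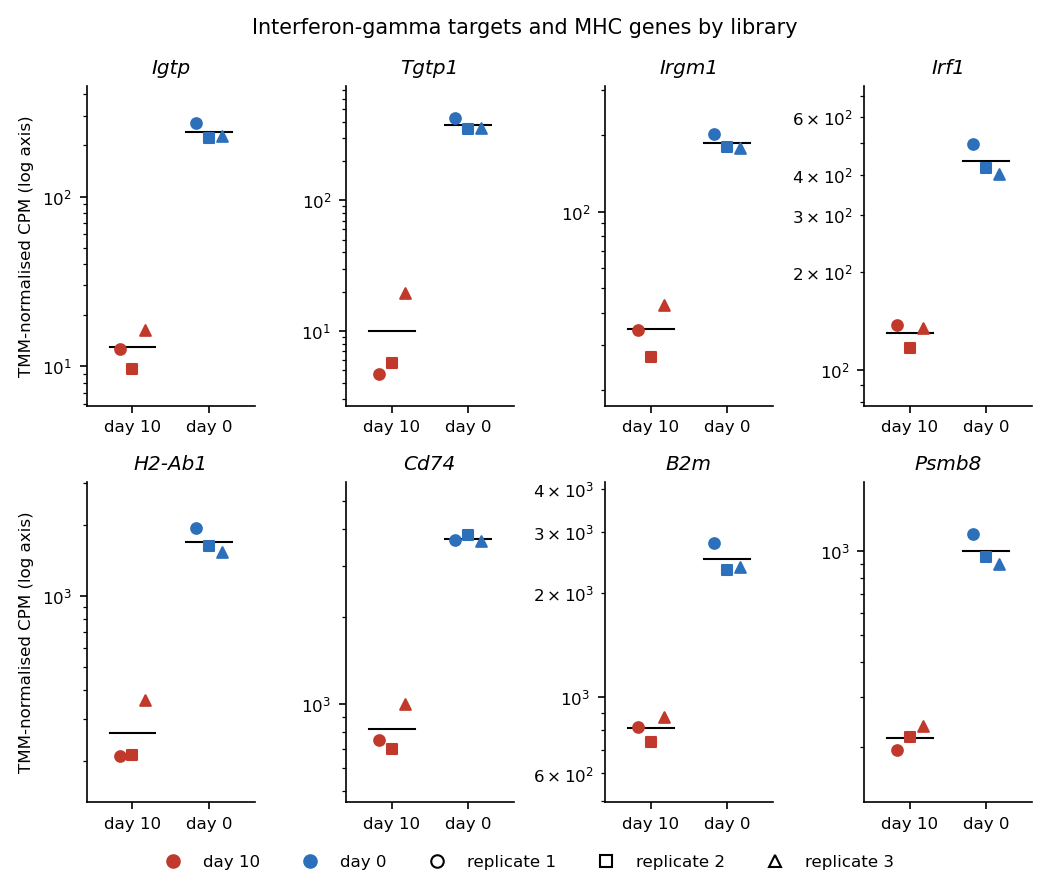
TMM-normalised CPM (log axis) of 8 interferon-gamma targets and MHC genes in the 3 day 10 and 3 day 0 libraries; points are libraries and lines are means. All day 10 libraries lie below all day 0 libraries in each panel, with Igtp at 9.68 to 16.4 against 220 to 271 CPM.

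Promoter windows of some of these genes are shown because the members fell together and the windows hold a searched motif. Windows run 5′ to 3′ on the gene's strand, from 250 bases before to 50 after the first listed start, and come from RefSeq on GRCm38.p6. The gamma-activated site TTCNNNGAA, a motif of interferon-gamma targets, was on either strand in 6 of 13 fallen interferon-gamma members with a window, against 8.47% of 27025 genes. The interferon-response core, TTTC and TTTC with 2 bases between them, is bound by Irf factors. It was in 3 of 12 fallen class I members, against 3.49% of genes. In the interferon-stimulated list it was in 3 of 7 fallen members, and in 9 of 16 members whatever their call. The Y box ATTGG, part of the class II promoter module, was in 4 of 5 fallen class II members, against 37.9% of genes. None of these motifs contains another. Capitals mark the first motif in Igtp and Irgm2, the second in B2m and the third in H2-Eb1. The windows of Igtp and Irgm2, neighbours on chromosome 11, share long identical runs around the motif, yet were counted separately. Other matches are unmarked, since Igtp and Irgm2 also hold the second motif, from positions -34 and -64, and B2m the third, from position -53. On its given strand, B2m shows the reverse complement, and H2-Eb1 shows the motif in both orientations.
Igtp, chr11:58199306-58199605, plus strand: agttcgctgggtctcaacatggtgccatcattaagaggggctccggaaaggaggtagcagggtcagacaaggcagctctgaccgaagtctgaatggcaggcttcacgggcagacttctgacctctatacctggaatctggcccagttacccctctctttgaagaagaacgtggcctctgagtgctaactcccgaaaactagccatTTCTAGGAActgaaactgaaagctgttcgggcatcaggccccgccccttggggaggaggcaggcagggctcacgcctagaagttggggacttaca
Irgm2, chr11:58214727-58215026, plus strand: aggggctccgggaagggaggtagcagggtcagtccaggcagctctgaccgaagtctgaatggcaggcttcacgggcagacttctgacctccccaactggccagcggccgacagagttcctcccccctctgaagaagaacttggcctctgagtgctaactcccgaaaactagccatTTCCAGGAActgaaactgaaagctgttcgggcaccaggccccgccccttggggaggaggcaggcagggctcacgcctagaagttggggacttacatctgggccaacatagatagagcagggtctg
B2m, chr2:122147437-122147736, plus strand: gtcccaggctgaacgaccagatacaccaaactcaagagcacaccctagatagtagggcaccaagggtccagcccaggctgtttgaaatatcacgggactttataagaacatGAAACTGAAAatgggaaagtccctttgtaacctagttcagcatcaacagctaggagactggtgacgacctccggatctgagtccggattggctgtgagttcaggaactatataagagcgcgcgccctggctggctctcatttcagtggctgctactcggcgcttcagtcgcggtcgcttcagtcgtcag
H2-Eb1, chr17:34305617-34305916, plus strand: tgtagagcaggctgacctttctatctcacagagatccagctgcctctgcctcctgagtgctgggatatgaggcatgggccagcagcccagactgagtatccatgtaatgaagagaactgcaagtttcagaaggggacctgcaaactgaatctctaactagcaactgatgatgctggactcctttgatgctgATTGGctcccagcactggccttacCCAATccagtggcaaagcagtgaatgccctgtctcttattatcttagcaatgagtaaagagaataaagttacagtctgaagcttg
The match begins at position -45 from the start in Igtp, -75 in Irgm2 and -139 in B2m, and it describes these letters only.

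Transcripts of T and NK cells were rare in all 6 libraries. Of 17 T and NK cell markers, 9 were tested and 4 of those fell, against 22% of all genes tested. Without day 0 replicate 1 or day 10 replicate 2, 2 fell. The summed level of the 17 was 8.48, 7.92 and 19.6 CPM in the day 10 libraries, against 20.5, 20 and 17.9 in the day 0 libraries. No marker was at 0 in all 6 libraries. Cd3e, a chain of the T cell receptor complex, had 0.294, 0.489 and 2.06 CPM in the day 10 libraries, against 0.317, 0.289 and 0.411 in the day 0 libraries. The effector genes were different. Gzma, a cytotoxic granule protease, had 0.0734, 0.147 and 0.343 CPM in the day 10 libraries, against 4.15, 3.62 and 4.31 in the day 0 libraries (log2 fold change -4.48 ± 0.52, adjusted p = 0.0019). Ccl5, a T cell chemokine, had 0.33, 0.342 and 0.916 CPM in the day 10 libraries, against 3.83, 3.67 and 3.08 in the day 0 libraries (log2 fold change -2.77 ± 0.47, adjusted p = 0.0062). The part of these cells in the fall of the interferon-gamma targets was not tested. In bulk samples, fewer cells of a type and less RNA per cell cannot be told apart.

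Antimicrobial genes of the lining had no common direction. Reg3g, a lectin that kills Gram-positive bacteria, had 177, 180 and 862 CPM in the day 10 libraries, against 4017, 3280 and 3242 in the day 0 libraries (log2 fold change -3.11 ± 0.62, adjusted p = 0.01). Without 1 of the day 0 replicates 1, 2 or 3 the adjusted p was 0.089, 0.058 or 0.056. Reg3b, its close relative, had 83.2, 87.8 and 1043 CPM in the day 10 libraries, against 3575, 2966 and 2985 in the day 0 libraries (log2 fold change -2.97 ± 0.95, adjusted p = 0.043). Day 10 replicate 3 carried over 10 times more Reg3b than the other day 10 libraries, and without it the log2 fold change was -5.22 (adjusted p = 4e-07). Its call was lost in each of the 5 fits that left out another library (adjusted p of 0.051 to 0.2). Ltf, the iron-binding protein lactoferrin, had 0.807, 1.22 and 0.572 CPM in the day 10 libraries, against 6.8, 5.29 and 6.37 in the day 0 libraries (log2 fold change -2.81 ± 0.34, adjusted p = 0.0022). Reg1 went the other way, with 76.9, 73.9 and 179 CPM in the day 10 libraries, against 32, 26 and 27.2 in the day 0 libraries (log2 fold change 1.95 ± 0.33, adjusted p = 0.0062). Of 16 tested members of the list of Reg lectins and antimicrobials, 4 fell and 2 rose, against 22% and 13.5% of all genes tested. The median log2 fold change of the list was 0.42. The falls numbered 1 without any 1 of the day 0 replicates and 2 without day 10 replicate 2, and 5 rose and 5 fell without day 10 replicate 3. The rises numbered 4 without day 10 replicate 1 and 1 without day 10 replicate 2.

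Nox1, the catalytic subunit of an epithelial NADPH oxidase, had 9.1, 5.86 and 17.9 CPM in the day 10 libraries, against 68.8, 80.3 and 82.8 in the day 0 libraries (log2 fold change -2.83 ± 0.36, adjusted p = 0.0029). Its activator Noxa1 had 111, 97.1 and 103 CPM in the day 10 libraries, against 221, 206 and 194 in the day 0 libraries (log2 fold change -1.00 ± 0.12, adjusted p = 0.0026). Duox2, the dual oxidase that releases hydrogen peroxide into the lumen, had 33.4, 32.3 and 67.2 CPM in the day 10 libraries, against 49.3, 98.5 and 86.5 in the day 0 libraries. Its groups overlapped, and it did not pass (adjusted p = 0.083), but it was called fallen without day 10 replicate 3 (log2 fold change -1.25, adjusted p = 0.015). Alox15, a lipoxygenase, fell to 0.807, 0.342 and 1.26 CPM in the day 10 libraries, against 16.3, 16 and 15.3 in the day 0 libraries (log2 fold change -4.31 ± 0.38, adjusted p = 0.00055).

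Gasdermin C genes rose, and Mlkl and Ripk3 fell. Gasdermins are proteins whose cleaved ends can form pores in membranes. Gsdmc4 (chr15:63891140-63912319) had 355, 264 and 406 CPM in the day 10 libraries, against 53.9, 50.4 and 51 in the day 0 libraries (log2 fold change 2.72 ± 0.18, adjusted p = 0.00017). Gsdmc2 had 276, 216 and 313 CPM in the day 10 libraries, against 46.6, 40.8 and 46.1 in the day 0 libraries. Gsdmc and Gsdmc3 rose by a similar factor, with log2 fold changes of 2.72 and 2.62. Day 10 lay above day 0 in every library of all 4 genes, which are near-identical neighbours on chromosome 15 and may share reads. Mlkl, the pore-forming effector of necroptosis, had 8.77, 7.77 and 7.21 CPM in the day 10 libraries, against 23.3, 23.3 and 19.1 in the day 0 libraries (log2 fold change -1.47 ± 0.19, adjusted p = 0.0031). Ripk3, the kinase that activates it, had 46.5, 43 and 48.1 CPM in the day 10 libraries, against 106, 90.2 and 85.5 in the day 0 libraries (log2 fold change -1.04 ± 0.14, adjusted p = 0.0034). Of 14 tested members of the list of gasdermins and caspases, 4 rose and 6 fell, against 13.5% and 22% of all genes tested. The 6 became 3 without day 10 replicate 2 and 10 without day 10 replicate 3.

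Tuft cell genes rose together. Of 12 tested members of 15 listed, 10 rose, against 13.5% of all genes tested, and the median log2 fold change was 1.74. The summed level was 122, 132 and 181 CPM in the day 10 libraries, against 47.2, 44.6 and 43.9 in the day 0 libraries. Pou2f3, the transcription factor that defines the lineage (chr9:43123927-43205755), had 4.48, 5.13 and 5.09 CPM in the day 10 libraries, against 1.27, 0.984 and 1.3 in the day 0 libraries (log2 fold change 2.04 ± 0.28, adjusted p = 0.0034). Trpm5, the cation channel that relays taste signals, had 28.4, 35.4 and 39.1 CPM in the day 10 libraries, against 8.45, 10.2 and 11.1 in the day 0 libraries (log2 fold change 1.79 ± 0.2, adjusted p = 0.0017). Dclk1, a kinase used as a tuft marker, had 13.3, 15.8 and 21.5 CPM in the day 10 libraries, against 4.47, 5.64 and 5.62 in the day 0 libraries. Alox5 and Alox5ap, which start leukotriene synthesis, rose with log2 fold changes of 2.31 ± 0.3 and 1.98 ± 0.24. Leaving out 1 library left 7 to 10 risen.

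Enteroendocrine genes fell. Of 20 tested members of 21 listed, 14 fell, against 22% of all genes tested, with a median log2 fold change of -1.12. The summed level was 214, 203 and 228 CPM in the day 10 libraries, against 588, 504 and 491 in the day 0 libraries. The count depended on day 10 replicate 2, without which 6 fell. Chga, a protein of hormone granules (chr12:102554941-102565027), had 22.3, 23 and 17.2 CPM in the day 10 libraries, against 70.2, 59.2 and 57.6 in the day 0 libraries (log2 fold change -1.58 ± 0.17, adjusted p = 0.0016). Gcg, the gene of glucagon-like peptides, had 13.8, 11.2 and 25.5 CPM in the day 10 libraries, against 76.7, 64.6 and 63.1 in the day 0 libraries (log2 fold change -2.02 ± 0.29, adjusted p = 0.0041). Tac1, the precursor of substance P, had 7.82, 6.84 and 6.18 CPM in the day 10 libraries, against 31.4, 24.3 and 25.9 in the day 0 libraries (log2 fold change -1.97 ± 0.2, adjusted p = 0.0011). These hormones are made by different subsets of enteroendocrine cells. Ghrl, the precursor of ghrelin, had 6.35, 8.11 and 7.32 CPM in the day 10 libraries, against 17.4, 16.7 and 15 in the day 0 libraries. The groups were separate for each of these 4 genes.

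Among goblet cell genes, 1 of 17 tested rose and 5 fell, against 13.5% and 22% of all genes tested. Clca1, a secreted protein of mucus, had 712, 536 and 448 CPM in the day 10 libraries, against 256, 248 and 237 in the day 0 libraries (log2 fold change 1.19 ± 0.17, adjusted p = 0.0042). Agr2, a disulfide isomerase needed to fold mucin, had 509, 467 and 319 CPM in the day 10 libraries, against 1039, 874 and 844 in the day 0 libraries (log2 fold change -1.09 ± 0.19, adjusted p = 0.0065). Muc2, the gel-forming mucin itself, had 559, 674 and 241 CPM in the day 10 libraries, against 208, 326 and 318 in the day 0 libraries. Its groups overlapped, and it passed without day 10 replicate 3 (log2 fold change 1.12, adjusted p = 0.0062) but not with it (adjusted p = 0.095). The 5 falls became 2 without day 0 replicate 1 or day 10 replicate 2, and 3 without day 0 replicate 2 or 3, and without day 10 replicate 3 there were 5 rises and 4 falls.

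Paneth cell genes divided the day 10 libraries. Their summed level over 19 listed genes was 150781, 164395 and 11537 CPM in the day 10 libraries, against 83077, 70877 and 69618 in the day 0 libraries. Day 10 replicates 1 and 2 were thus above day 0 and day 10 replicate 3 below it. With all libraries 0 of the 19 rose and 1 fell in edgeR's test, against 4 above and 3 below at an unadjusted p under 0.05, and DESeq2 called 1 risen and 3 fallen. Without day 10 replicate 3, 11 rose and 3 fell, against 14.4% and 21.4% of all genes in that fit. Defa24, an alpha-defensin, had 61323, 68842 and 4380 CPM in the day 10 libraries, against 26397, 22622 and 22130 in the day 0 libraries. Ang4, a bactericidal ribonuclease, had 8011, 7860 and 507 CPM in the day 10 libraries, against 1265, 1038 and 1024 in the day 0 libraries. Without day 10 replicate 3 their log2 fold changes were 1.45 for Defa24 (adjusted p = 0.00015) and 2.84 for Ang4 (adjusted p = 1.9e-06).

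Lyz1, the Paneth cell lysozyme, had 7997, 6872 and 930 CPM in the day 10 libraries, against 11190, 9189 and 9089 in the day 0 libraries, and did not pass (adjusted p = 0.26). The defensin gene Defa20 fell, with 1298, 1534 and 268 CPM in the day 10 libraries, against 4486, 3924 and 3855 in the day 0 libraries (log2 fold change -1.98 ± 0.51, adjusted p = 0.02). Its call was lost without any 1 of the day 0 replicates (adjusted p of 0.14, 0.094 and 0.089) and without day 10 replicate 2 (adjusted p = 0.054). Defensin genes are near-identical copies, so counts of single ones are uncertain. Ileal Fabp6, a bile acid carrier, had 15.8, 18.8 and 321 CPM in the day 10 libraries, against 236, 205 and 207 in the day 0 libraries. Krt20, a keratin of mature enterocytes, had 23.4, 16.7 and 162 CPM in the day 10 libraries, against 140, 116 and 113 in the day 0 libraries. For both genes day 10 replicate 3 resembled day 0 while the other day 10 libraries were lower, with log2 fold changes of -3.65 for Fabp6 (adjusted p = 1.9e-06) and -2.62 for Krt20 (adjusted p = 4.2e-05) when that library was left out. With it, neither was called. Of the 10 ileal markers, 2 rose and 0 fell with that library, against 13.5% and 22% of all genes tested. Without it 1 rose and 6 fell, against 14.4% and 21.4%.

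**Figure D3:**
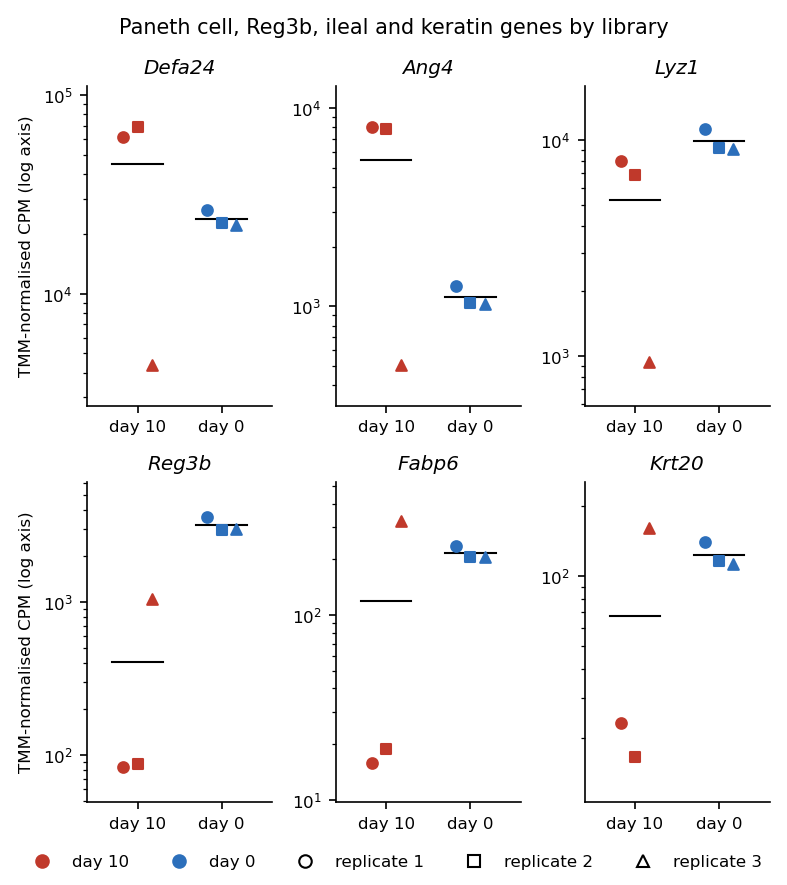
TMM-normalised CPM (log axis) of Defa24, Ang4, Lyz1, Reg3b, Fabp6 and Krt20 in the 3 day 10 and 3 day 0 libraries; points are libraries, shapes are replicates and lines are means. Day 10 replicate 3 (triangle) lies apart from the other day 10 libraries in every panel, as for Defa24 at 4380 against 61323 and 68842 CPM.

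Absorptive genes were mixed. Of 25 tested enterocyte and brush border genes, 11 rose and 1 fell, against 13.5% and 22% of all genes tested. The median log2 fold change of the list was 1.07. Only 1 rose without day 0 replicate 1, 3 without day 0 replicate 2 and 3 without day 0 replicate 3, and without day 10 replicate 3 the count was 8 risen and 4 fallen. Sis, the sucrase-isomaltase of the brush border, had 116, 106 and 348 CPM in the day 10 libraries, against 22.1, 40.4 and 38.2 in the day 0 libraries (log2 fold change 2.50 ± 0.47, adjusted p = 0.0079). Its adjusted p was 0.069 without day 0 replicate 1. Ada, the adenosine deaminase of villus enterocytes, fell to 10.8, 9.92 and 12.2 CPM in the day 10 libraries, against 33.6, 31 and 25.9 in the day 0 libraries (log2 fold change -1.46 ± 0.19, adjusted p = 0.0029). Vil1, the brush border protein villin, had 301, 264 and 477 CPM in the day 10 libraries, against 542, 485 and 494 in the day 0 libraries. It did not pass (adjusted p = 0.07), and it was called fallen without day 10 replicate 3 (log2 fold change -0.85, adjusted p = 0.0029).

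Stem cell genes showed no common direction. Of 23 tested, 3 rose and 5 fell, near the 13.5% and 22% of all genes tested. The median log2 fold change was 0.03, against -0.08 over all genes tested. The counts were 2 risen and 2 fallen without day 0 replicate 1, and 1 risen without day 0 replicate 2, day 0 replicate 3 or day 10 replicate 1. They were 2 risen and 1 fallen without day 10 replicate 2, and 6 risen and 6 fallen without day 10 replicate 3. Lgr5, the receptor that marks cycling stem cells (chr10:115450314-115587780), had 76.6, 73.9 and 121 CPM in the day 10 libraries, against 119, 125 and 122 in the day 0 libraries. It did not pass (adjusted p = 0.11), and it passed without day 10 replicate 3 (log2 fold change -0.70, adjusted p = 0.0058). Olfm4 had 5231, 3149 and 5706 CPM in the day 10 libraries, against 8463, 8628 and 8794 in the day 0 libraries (log2 fold change -0.88 ± 0.22, adjusted p = 0.019). Without day 0 replicate 1 its log2 fold change was -0.76 (adjusted p = 0.069), and without day 10 replicate 2 it was -0.49 (adjusted p = 0.06). Cd44, a Wnt target and adhesion receptor of crypt cells, had 99.8, 91.4 and 84.1 CPM in the day 10 libraries, against 144, 170 and 177 in the day 0 libraries (log2 fold change -0.84 ± 0.14, adjusted p = 0.0057).

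Genes of DNA replication fell. Of 24 S phase genes, 23 fell, against 22% of all genes tested, with a median log2 fold change of -0.94. When 1 library was left out, 18 to 23 fell. Mcm3, a subunit of the replicative helicase, had 96.5, 84.5 and 84.6 CPM in the day 10 libraries, against 222, 192 and 199 in the day 0 libraries (log2 fold change -1.21 ± 0.13, adjusted p = 0.0013). Rrm1, the large subunit of ribonucleotide reductase, had 108, 79.1 and 111 CPM in the day 10 libraries, against 255, 257 and 257 in the day 0 libraries (log2 fold change -1.37 ± 0.15, adjusted p = 0.0018). Of 23 mitosis genes, 16 fell, against 22% of all genes tested, with a median log2 fold change of -0.87. When 1 library was left out, 11 to 16 fell. Plk1, a mitotic kinase, had 83, 73.4 and 74.6 CPM in the day 10 libraries, against 201, 179 and 173 in the day 0 libraries (log2 fold change -1.26 ± 0.13, adjusted p = 0.0011). Mki67, the proliferation antigen Ki-67, had 203, 251 and 112 CPM in the day 10 libraries, against 97.8, 137 and 145 in the day 0 libraries. It did not pass (adjusted p = 0.13), and without day 10 replicate 3 it was called risen (log2 fold change 0.84, adjusted p = 0.01), while 16 of the 23 fell in that fit.

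Cholesterol synthesis genes also fell, 19 of 24, against 22% of all genes tested, with a median log2 fold change of -0.99. The count was 13 to 19 when 1 library was left out and 14 with the stricter filter. Sqle, which oxidises squalene, had 49.4, 35.6 and 62.8 CPM in the day 10 libraries, against 140, 125 and 122 in the day 0 libraries (log2 fold change -1.39 ± 0.2, adjusted p = 0.0043). Idi1, an isomerase of the isoprenoid steps, had 55.2, 38.9 and 64.1 CPM in the day 10 libraries, against 130, 126 and 135 in the day 0 libraries (log2 fold change -1.31 ± 0.19, adjusted p = 0.0039). The groups did not overlap for either gene.

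Many genes of the unfolded protein response fell, and most immediate early genes rose. Of 20 genes of the unfolded protein response, 12 fell and 2 rose, against 22% and 13.5% of all genes tested. The median log2 fold change was -0.57, and 7 fell without day 10 replicate 2. Sdf2l1, a chaperone partner, had 55.3, 49.5 and 43.9 CPM in the day 10 libraries, against 149, 129 and 115 in the day 0 libraries (log2 fold change -1.40 ± 0.16, adjusted p = 0.0016). Pdia6, a disulfide isomerase, had 224, 194 and 192 CPM in the day 10 libraries, against 479, 398 and 389 in the day 0 libraries (log2 fold change -1.05 ± 0.14, adjusted p = 0.003). Creld2, a secreted stress-response protein, had 50.4, 44.7 and 47.3 CPM in the day 10 libraries, against 110, 87.1 and 83.3 in the day 0 libraries (log2 fold change -0.98 ± 0.15, adjusted p = 0.0049). Day 10 was below day 0 in every library of these 3 genes.

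The stress-response element, CCAAT and CCACG with 9 bases between them, was in the promoter windows of 7 of the 11 fallen members with a window, on either strand, and of 35 of 27025 genes (0.13%). Pdia6 and Creld2 are shown because they hold it, in capitals, with Creld2 on the opposite strand. The element contains CCAAT, the complement of the Y box searched above, and other matches to the Y box in both windows are unmarked.
Pdia6, chr12:17266339-17266638, plus strand: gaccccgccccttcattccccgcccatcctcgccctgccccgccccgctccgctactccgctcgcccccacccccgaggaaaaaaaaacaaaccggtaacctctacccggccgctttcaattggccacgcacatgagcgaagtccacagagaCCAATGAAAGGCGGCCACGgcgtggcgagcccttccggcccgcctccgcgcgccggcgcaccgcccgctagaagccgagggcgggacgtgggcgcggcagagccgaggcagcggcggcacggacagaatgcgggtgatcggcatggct
Creld2, chr15:88819396-88819695, plus strand: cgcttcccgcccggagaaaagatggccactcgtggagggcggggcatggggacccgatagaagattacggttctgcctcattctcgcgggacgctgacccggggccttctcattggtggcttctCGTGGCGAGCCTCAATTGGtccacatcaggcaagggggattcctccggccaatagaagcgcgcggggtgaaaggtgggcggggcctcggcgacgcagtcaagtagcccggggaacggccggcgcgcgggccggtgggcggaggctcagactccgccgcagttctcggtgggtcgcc
The match begins at position -98 from the start in Pdia6 and -126 in Creld2.

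Immediate early genes, transcription factors and feedback regulators induced within minutes of a stimulus, rose in 16 of 17 cases, against 13.5% of all genes tested. Their median log2 fold change was 1.20. The count was 10 without day 0 replicate 2. Egr1, a zinc finger factor, had 381, 398 and 426 CPM in the day 10 libraries, against 161, 156 and 152 in the day 0 libraries (log2 fold change 1.36 ± 0.12, adjusted p = 0.00055). Fos, a subunit of AP-1, had 711, 661 and 845 CPM in the day 10 libraries, against 360, 302 and 300 in the day 0 libraries (log2 fold change 1.20 ± 0.15, adjusted p = 0.0023). Zfp36, which speeds the decay of cytokine transcripts, had 246, 267 and 254 CPM in the day 10 libraries, against 113, 118 and 117 in the day 0 libraries. All day 10 libraries were above all day 0 libraries for these 3 genes. Klf6, the member that did not pass, had 106, 105 and 152 CPM in the day 10 libraries, against 92, 81.6 and 85.4 in the day 0 libraries (adjusted p = 0.053, or 0.046 without day 10 replicate 2). Hspa1a and Hspa1b, near-identical inducible heat shock genes of chromosome 17 that may share reads, rose too. The heat shock list did not rise as a whole. Of its 12 tested genes, 4 rose and 2 fell, against 13.5% and 22% of all genes tested. The other 6 did not pass, and the median log2 fold change of the list was -0.22. Hspa1b had 202, 167 and 238 CPM in the day 10 libraries, against 24.3, 21.4 and 21.7 in the day 0 libraries (log2 fold change 3.17 ± 0.17, adjusted p = 0.0001).

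**Figure D4:**
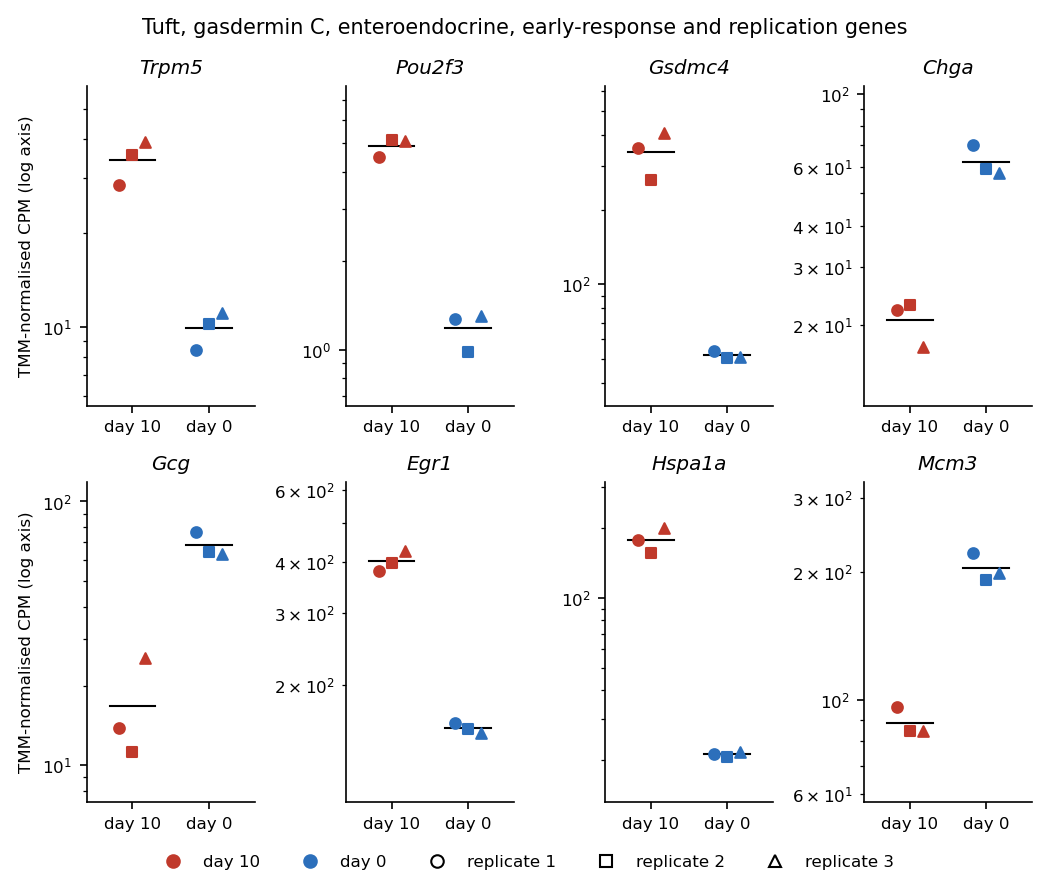
TMM-normalised CPM (log axis) of Trpm5, Pou2f3, Gsdmc4, Chga, Gcg, Egr1, Hspa1a and Mcm3 in the 3 day 10 and 3 day 0 libraries; points are libraries and lines are means. The groups do not overlap in any panel, with Hspa1a at 156 to 201 against 20.7 to 21.7 CPM.

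**Figure D5:**
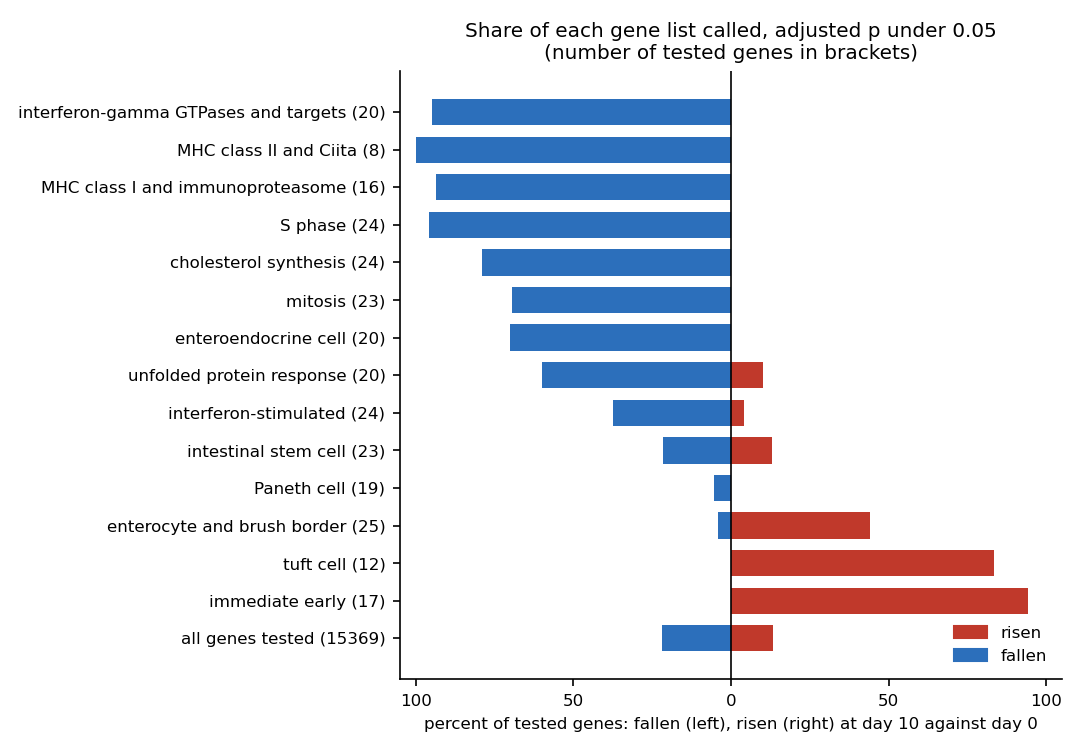
Percent of the tested genes of 14 lists, and of all 15369 genes tested, that were called fallen (left) or risen (right) at day 10 against day 0, with the number tested in brackets. The lists at the top were called almost wholly as fallen, the tuft cell and immediate early lists mostly as risen, and all genes are at 22% fallen and 13.5% risen.

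Among the 10 largest rises by the naming rule, the first was that of Slc28a1, a concentrative nucleoside transporter, which had 5.14, 3.37 and 20.5 CPM in the day 10 libraries, against 0.288, 0.434 and 0.548 in the day 0 libraries (log2 fold change 4.50 ± 0.73, adjusted p = 0.0054). Jaml, an adhesion molecule known from leukocytes, had 69.1, 70.1 and 13.6 CPM in the day 10 libraries, against 3.11, 2.49 and 1.99 in the day 0 libraries (log2 fold change 4.33 ± 0.58, adjusted p = 0.0032). Pla2g4c, a cytosolic phospholipase, had 112, 82.7 and 222 CPM in the day 10 libraries, against 4.87, 8.94 and 7.46 in the day 0 libraries (log2 fold change 4.29 ± 0.41, adjusted p = 0.00076). All 3 genes were below 10 CPM in every day 0 library. Scn2b, a beta subunit of sodium channels, had 21.8, 20.1 and 6.58 CPM in the day 10 libraries, against 2.25, 1.94 and 1.4 in the day 0 libraries. Jaml and Scn2b lie close together on chromosome 9, and each overlaps the predicted gene Gm10684, so their counts are uncertain. Day 10 replicate 3 was the highest of its group for Slc28a1 and Pla2g4c and the lowest for Jaml and Scn2b. The calls of these 4 genes held in each fit that left out 1 library, and those of Fsip2, Hspa1b and Xist among the 10 largest rises did too. Those of the other 3 did not. Scgb2b17, a secretoglobin gene, had 19.9, 19.4 and 1.2 CPM in the day 10 libraries, against 0.75, 0.608 and 0.548 in the day 0 libraries (log2 fold change 4.40 ± 0.87, adjusted p = 0.009). Pnliprp1, a relative of pancreatic lipase, had 41.1, 33.1 and 2.8 CPM in the day 10 libraries, against 2.59, 1.91 and 2.02 in the day 0 libraries (log2 fold change 3.56 ± 0.79, adjusted p = 0.013). Lct, the lactase of the brush border, had 6.68, 9.14 and 53 CPM in the day 10 libraries, against 1.15, 3.1 and 2.81 in the day 0 libraries (log2 fold change 3.28 ± 0.8, adjusted p = 0.017). Without day 0 replicate 1, 2 or 3 the adjusted p was 0.079, 0.082 or 0.074 for Scgb2b17, 0.1, 0.11 or 0.099 for Pnliprp1 and 0.14, 0.11 or 0.1 for Lct, and without day 10 replicate 2 it was 0.051 for Pnliprp1.

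The series title names PEDF, the secreted protein encoded by Serpinf1 and made largely by liver. Serpinf1 (chr11:75410029-75422623) had 7.16, 12 and 18.5 CPM in the day 10 libraries, against 3.75, 6.37 and 6.64 in the day 0 libraries (log2 fold change 1.17 ± 0.37, adjusted p = 0.039). The call was lost in 5 of the 6 fits that left out 1 library, with adjusted p-values of 0.08, 0.078 and 0.067 without day 0 replicate 1, 2 or 3, 0.078 without day 10 replicate 2 and 0.085 without day 10 replicate 3. As a share of the day 20 level, Serpinf1 stood at 1.01, 1.51 and 3.73% in the day 10 libraries and 0.519, 0.89 and 0.952% in the day 0 libraries, close to the hepatocyte marker medians given above. Of the 16 hepatocyte markers, 2 rose in edgeR's test, against 13.5% of all genes tested, and the median log2 fold change was 0.90. With RLE scaling 7 rose, and in DESeq2 13 did. Without day 10 replicate 1, 13 markers rose, and 1 rose without day 10 replicate 2 or 3. With any 1 of the day 0 replicates left out no marker rose, and 1 fell without day 0 replicate 1. Their part in the Serpinf1 difference was not tested. Among proposed PEDF receptors, Pnpla2, a triglyceride lipase, had 131, 125 and 124 CPM in the day 10 libraries, against 267, 237 and 236 in the day 0 libraries (log2 fold change -0.96 ± 0.12, adjusted p = 0.0026). Lrp6, a Wnt co-receptor, had 31.9, 38.9 and 23.6 CPM in the day 10 libraries, against 13.5, 23 and 21.9 in the day 0 libraries. It did not pass (adjusted p = 0.064), and it was called risen without day 10 replicate 3 (log2 fold change 0.86, adjusted p = 0.025), with RLE scaling (adjusted p = 0.022) and in DESeq2 (adjusted p = 0.021).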

How the data were processed

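The submitters' processing notes name STAR, Partek and mm10 without versions or roles. As deposited, each file labelled liver gives whole-number counts for 24594 numeric identifiers; the counting program and the strand setting are not given in the sources used here. Names and coordinates were taken from a RefSeq table of GRCm38.p6, which matched 24570 identifiers (99.9%). The 24 others took 6.32 to 22.1% of the counts in the 6 libraries, nearly all from 1 identifier, and counted toward the totals. Of 101 genes looked up, 30 overlap another annotated gene, as Xist does its antisense partner Tsix, and such counts are uncertain.

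Only the 6 libraries entered the fit, made in R 4.3.3 with edgeR 4.0.16. It used TMM factors, filterByExpr (minimum count 10, minimum total 15), the robust quasi-likelihood F test, and Benjamini-Hochberg p-values over 15369 genes. CPM of all counts, which also cover day 20, are counts per 1e+06 with no TMM factor. With 3 libraries against 3, an exact permutation test of a single gene cannot fall below p = 0.1, so none was used. The alternatives were RLE size factors, DESeq2 1.42.0, no filter, a stricter filter (1 CPM in each library of either group, with a mean of 5 CPM there), the 9 libraries labelled liver together, a block for the replicate number, leaving out the unnamed, mitochondrial and Gm10800 identifiers, and leaving out each library in turn.

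The members and lists were chosen with earlier results of these data known, and lists are described by counts and medians only. A rule selected the genes named: check genes, the 10 largest rises and 10 largest falls that also passed without day 10 replicate 3 (groups not overlapping, a mean of 5 CPM or more in the higher group, predicted models left out), and in each list the first 2 members and up to 4 called members with the smallest p. Not all of them are printed. In counts simulated for this layout, the test called 1.49% of the 1.5-fold, 32.8% of the 2-fold and 74.2% of the 4-fold changes. Each was called in its true direction, while 5 unchanged genes were 6.49% of what it called. Only 67, 67 and 66 of 15369 genes were changed by these factors, whereas 35.4% were called in the data. All simulated libraries also shared a common profile, with no library standing apart. These rates may therefore not hold for the data. The intestinal files, for which the authors deposited estimated counts per gene with no further step stated in the labels, served only as a check of the tissue markers. Python 3.11.15 and matplotlib 3.10.9 drew the figures.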

Additional observations from a re-analysis of the deposited data

How the results depend on the processing

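Risen genes numbered 3822 with DESeq2, 4205 with no filter, 4050 with all 9 libraries labelled liver, 1073 with the stricter filter and 1266 with a replicate block, against 2068 as reported. Fallen genes numbered 2039 with RLE size factors, 1672 with the stricter filter and 1958 without the unnamed, mitochondrial and Gm10800 identifiers, against 3379. Of genes changed at least 2-fold, 3186 rose with DESeq2, 3350 with no filter, 3034 with all 9 libraries and 683 with the stricter filter, against 1707. In the other direction 203 fell with the stricter filter and 265 without those identifiers, against 486. The stricter filter tested 10810 genes. With 1 library left out, 679 to 2633 genes rose, 910 to 3452 fell, 639 to 2509 rose at least 2-fold and 183 to 921 fell at least 2-fold.

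No pairing of libraries by replicate number was seen, though 3 libraries per group are too few to exclude one. Deviations from the group means correlated at 0.0347, -0.0337 and 0.0262 between libraries of the same number, over 15369 genes. Not every library correlated best with the library of its own number.

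Of 101 genes named and tested, 83 were called, and 74 of those were called in every fit that gave a value. Calls lost numbered 1 with RLE size factors, 0 with DESeq2, with all 9 libraries and with the replicate block, 5 with no filter, 3 with the stricter filter, 1 without the listed identifiers, and 1 to 9 with a library left out. None of the 101 changed direction in any fit. The rule that named these genes favours small p-values, so their counts do not stand for all calls. Of all 5447 genes called as reported, 34.3 to 88.2% were called in the same direction with 1 library left out. The lowest share was without day 10 replicate 2, and it was 39.6% without day 0 replicate 1. With the stricter filter the share was 45.3%, and with all 9 libraries 93.9%. Depth limits genes of few counts most in day 10 replicate 3, which had 12742629 counts. The SEs describe these 6 libraries, in which day, sex-linked genes and the counts of unnamed identifiers moved together.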

Other observations

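Nuclear receptors that sense fatty acids were higher at day 10. Of 9 tested genes of the PPAR and RXR list, 6 rose, against 13.5% of all genes tested, with a median log2 fold change of 0.84. Without day 0 replicate 2, 2 rose, and 3 rose without day 0 replicate 3. Ppard, the PPAR of most epithelia, had 26.6, 49.8 and 23 CPM in the day 10 libraries, against 12.1, 12.6 and 12.3 in the day 0 libraries (log2 fold change 1.43 ± 0.29, adjusted p = 0.0097). Pdk4, a PPAR target that restrains glucose oxidation, had 11.9, 6.55 and 7.78 CPM in the day 10 libraries, against 0.951, 1.56 and 1.81 in the day 0 libraries (log2 fold change 2.60 ± 0.35, adjusted p = 0.0031). The groups did not overlap for either gene. Of 27 tested PPAR-alpha targets, 5 rose and 1 fell, against 13.5% and 22% of all genes tested. Their median log2 fold change was 0.04, against -0.08 over all genes tested.

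Transcripts of neutrophils, cells known to enter an inflamed gut, were near 0. None of 10 listed neutrophil genes had counts enough to be tested, and their summed level was 1.14, 1.91 and 4.98 CPM in the day 10 libraries, against 0.375, 0.521 and 0.24 in the day 0 libraries. Olfactory receptor genes, known from the nasal lining, summed to 406, 519 and 807 CPM in the day 10 libraries, against 355, 334 and 324 in the day 0 libraries. Day 10 replicate 3 was the highest in both lists. Of 12 listed macrophage genes, 9 were tested, and 1 rose and 1 fell, against 13.5% and 22% of all genes tested.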
